A study of Drosophila melanogaster with 10 samples.

Results

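The cytoplasmic ribosomal proteins build the small 40S and the large 60S subunit of the ribosome. They were taken as all probe sets with a single gene symbol that starts with RpL or RpS followed by a number, or that is RpLP0, RpLP1 or RpLP2, the acidic proteins of the 60S stalk, with their duplicate and "-like" genes. This gave 46 of the 18769 fly probe sets on the array, for 40 of the 11982 named genes. By symbol alone, the 24 RpL genes were counted as 60S and the 16 RpS genes as 40S. The RpL genes include RpL24-like and RpL7-like, relatives of 60S assembly factors. The RefSeq table lists 91 genes with such a symbol, and the other 51 were not analysed here.

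The arrays measured total RNA of SL2 cells, a cell line from Drosophila melanogaster embryos, harvested 5 days after RNA interference. All cells were grown at 26°C, and each treatment used 10 µg of double-stranded RNA (dsRNA). On 4 arrays, the mock treatment, the dsRNA was directed against eGFP, a jellyfish protein with no gene in the fly. On 6 arrays it was directed against Tip60, the catalytic subunit of a histone acetyltransferase complex, with 2 arrays for each of 3 dsRNAs, named here by their position in the target as 1321-1618, 190-807 and 603-1116. The dsRNAs 190-807 and 603-1116 overlap. Whether arrays of 1 treatment stem from separate cultures is not stated, so a p-value here reflects only how these arrays vary, and that variation may be technical. The titles group the mock arrays into pairs, eGFP replicates 1 and 2 and eGFP replicates 3 and 4, without saying what a pair shares, and n = 4 counts arrays. The number of arrays limits the precision.

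The ribosome reads mRNA on its 40S subunit and joins amino acids on its 60S subunit. Its protein genes are expressed together at very high levels in growing cells, and in the fly the loss of a single copy of many of them gives the Minute phenotype of slow growth and short bristles. Some of these genes have a duplicate that is used mainly in the germline, and some relatives of them encode factors that assemble the 60S subunit and leave it.

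Values are probe set signals as deposited, on a linear scale with the same trimmed mean on every array, and changes are differences of mean log2 signal, Tip60 RNAi minus eGFP RNAi. Signal of Tip60 was 1239 ± 103 (SD, n = 4) on the mock arrays and 307 ± 71.5 (SD, n = 6) on the Tip60 RNAi arrays, and the groups did not overlap. The median signal of the fly probe sets was 55.6 to 72.1 on the mock arrays and 78.6 to 110.1 on the Tip60 RNAi arrays. The hybridization spike-ins are control RNAs added to the hybridization mix. Their mean log2 signal was 12.57 to 13.33 on the mock arrays and 13.26 to 13.89 on the Tip60 RNAi arrays. All 10 hemocyte markers listed were above the filter on dim probe sets, a signal of 34.5, and both muscle markers with a probe set were below it. Of 3 fat body markers with a probe set, 1 was above it, Lsp2 with a mean of 88.6 on the mock arrays. Of 2 neuron markers with a probe set, 1 was above it, elav with a mean of 433.

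Most cytoplasmic ribosomal protein genes had a slightly higher signal after Tip60 RNAi, and few of these differences passed the test. Of the 38 genes above the filter, 8 rose and 0 fell (limma, adjusted p under 0.05), and 0 fell at an unadjusted p under 0.05. The 8 genes are 21.1% of those tested, beside 17.8% of all 11261 probe sets called higher and 16.7% called lower, so their share lay near the background. The groups did not overlap in 2 genes, RpL27 and RpS5b, both higher, beside 12.4% of all probe sets higher and 13.1% lower without overlap. Of the genes counted as 60S by symbol, 4 of 23 were called, and of those counted as 40S, 4 of 15. In these bulk cultures, more RNA per cell and more cells with that RNA cannot be told apart.

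The sign of the shift depended on how arrays were scaled. The median log2 change of the 38 genes was 0.24, and that of all probe sets tested was 0.08, a difference of 0.17. With arrays centred on their medians, or scaled to the hybridization or the poly-A spike-ins, the ribosomal protein median was −0.26, −0.30 and −0.51, while the median of all probe sets was −0.43, −0.47 and −0.67. Each of these scalings shifts all probe sets of an array by the same amount. The difference between the ribosomal protein genes and all probe sets was thus bound to stay at 0.17. Other settings could move this difference. It was 0.13 after cyclic loess, where the ribosomal protein median was 0.10. It was 0.02 after quantile normalization, where the ribosomal protein median was −0.02. The difference was 0.03 with no filter and 0.26 with a filter at the 60th percentile. With 1 array left out it ran from 0.05 (without eGFP replicate 1) to 0.22 (without eGFP replicate 4). Without both outlying arrays, described below and chosen after seeing the data, it was −0.008.

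**Figure D1:**
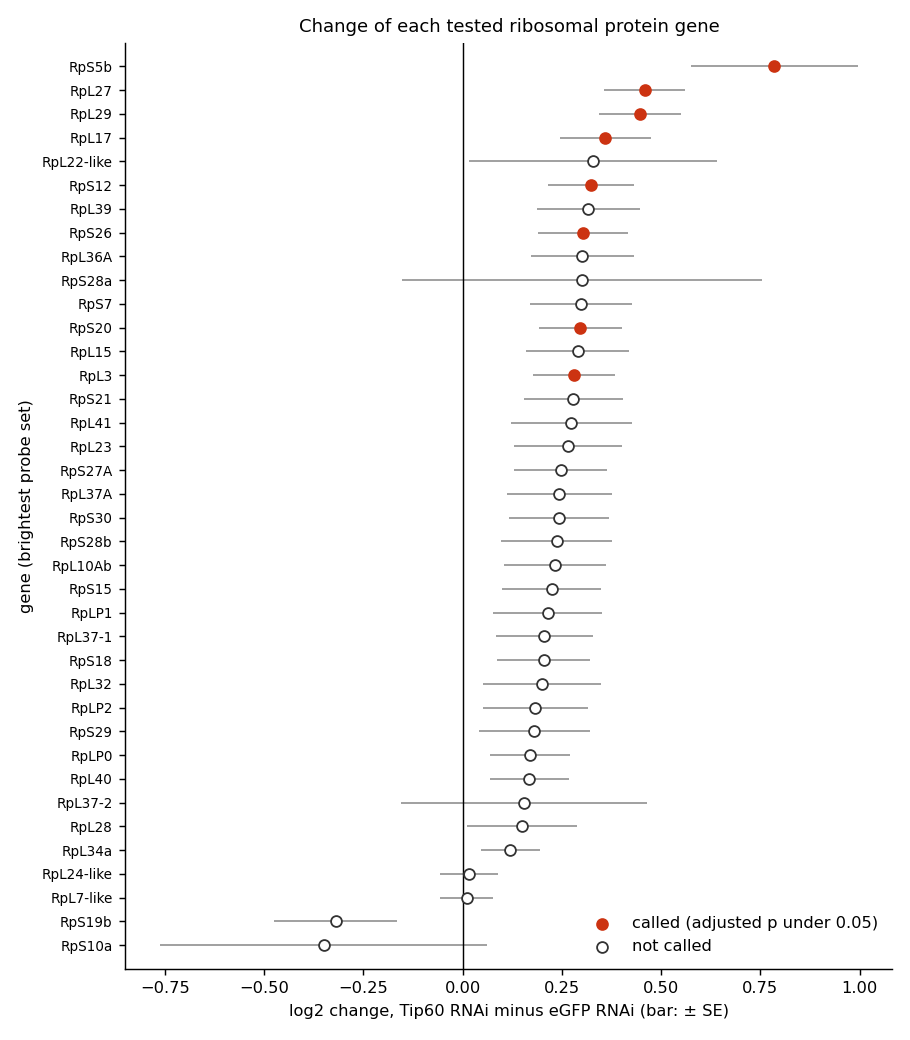
The horizontal axis gives the log2 change of signal (Tip60 RNAi minus eGFP RNAi, as deposited scaling) of each of the 38 tested genes, listed on the vertical axis, with bars of ± SE and filled points for the 8 called genes. RpS5b stands at 0.79, RpL27 at 0.46 and RpL29 at 0.45, and RpS19b and RpS10a lie below 0 without a call; with arrays centred on their medians or scaled to spike-ins, the median of the 38 genes is below 0.

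Within the family, the constitutive ribosomal proteins formed a class of their own by signal. Of the 38 genes, 29 had a mean signal above 40000 on the mock arrays, 18 of the 60S and 11 of the 40S subunit, and none of the others exceeded 25401. The group means of these 29 abundant genes were 45036 to 89332 after mock treatment and 51231 to 107654 after Tip60 RNAi. Their log2 changes ran from 0.15 to 0.46 with a median of 0.25, and 7 were called higher, beside 17.8% of all probe sets. Of the brightest 25% of tested probe sets, leaving out the family, 24.3% were called higher and 32.4% lower. Among the 29 genes, the median change was 0.25 for the 60S and 0.25 for the 40S genes.

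**Figure D2:**
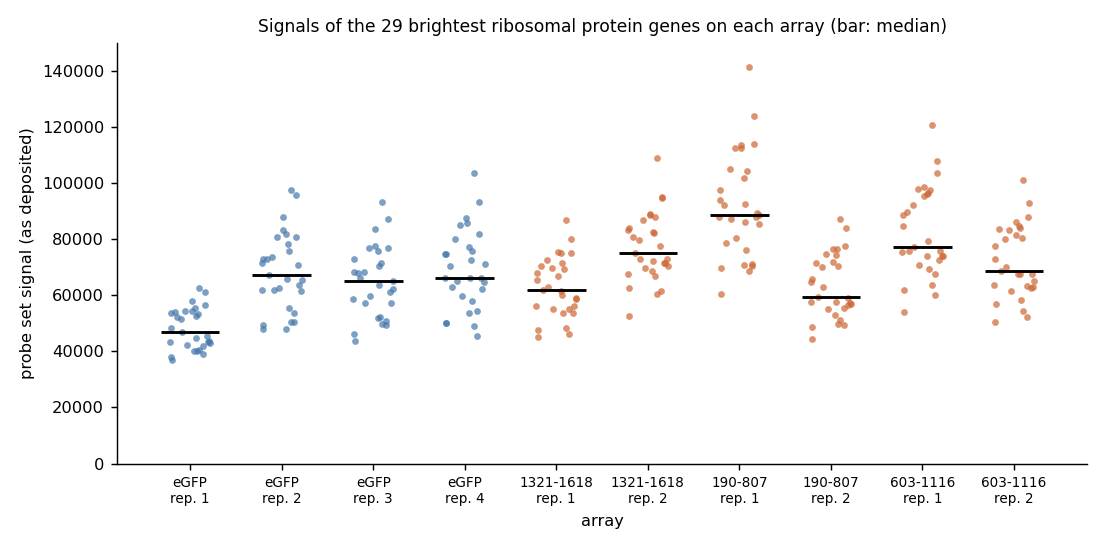
Each point is 1 of the 29 abundant ribosomal protein genes, with its signal on the vertical axis and the array on the horizontal axis (blue for eGFP RNAi, orange for Tip60 RNAi, black bar for the median). The median is 47026 on eGFP replicate 1 and 88697 on replicate 1 of dsRNA 190-807, and it lies between 59519 and 77343 on the other arrays.

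The 29 abundant genes moved as a block from array to array, and 1 mock array stood apart. Their median signal was 47026 on eGFP replicate 1 and 67184, 65251 and 66136 on eGFP replicates 2 to 4. It was 61960 and 74941 with dsRNA 1321-1618, 88697 and 59519 with 190-807, and 77343 and 68757 with 603-1116. All 29 genes had their lowest signal on eGFP replicate 1, and 26 had their highest on replicate 1 of dsRNA 190-807. The pairwise correlation of log2 deviations from the group means had a median of 0.97 over the 10 arrays, which share their scaling. This movement was not particular to the family. The mean deviations of the 29 genes correlated at 0.99 with those of 12 bright probe sets of other named genes, described below. The mean log2 signal of these 12 was also lowest on eGFP replicate 1, at 15.53. It was highest on replicate 1 of dsRNA 190-807, at 16.30.

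These arrays bore on the calls. Without eGFP replicate 1 the median change of the 29 genes was 0.12, and 3 of the 38 genes were called higher, RpL27, RpL29 and RpS5b, beside 15% of all probe sets. Without that array and replicate 1 of dsRNA 190-807, a choice made after seeing the data, the median was 0.05, and the same 3 genes were called, beside 15.5%. Without eGFP replicate 3 these 3 genes were again the ones called, with a median change of 0.28 and 14.8% of all probe sets called higher. The hybridization spike-ins were lowest on eGFP replicate 1 too, at a mean log2 signal of 12.57. The poly-A spike-ins were highest there among the mock arrays, at 8.78 against 8.36, 8.58 and 8.51 on eGFP replicates 2 to 4. The part of either spike-in set in the result was not tested.

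Other transcripts of the same brightness had changes of like size. Of the 97 fly probe sets at least as bright as the dimmest of the 29 genes, 30 were ribosomal protein probe sets by their symbol. Another 55 had no single gene name, and whether ribosomal protein genes are among them was not checked. These 55 had a median log2 change of 0.26, from 0.10 to 0.72, with 15 called higher and 0 lower. The other 12 carried another single gene name. These 12 had a median log2 change of 0.31, from −0.02 to 0.36, and 6 were called higher, beside 17.8% of all probe sets. Among them were eIF4A, the RNA helicase of translation initiation, at 0.35, and Rack1, a protein of the 40S head that no symbol rule caught, at 0.24 (adjusted p = 0.0585). The mean log2 signal of the 29 genes minus that of the 12 was 0.01 to 0.08 on the mock arrays and −0.01 to 0.16 on the Tip60 RNAi arrays, so the groups overlapped. With arrays centred on these 12 probe sets, a scaling added after seeing the data, 0 ribosomal protein genes were called higher (limma, 3 at an unadjusted p under 0.05), beside 5.5% of all probe sets higher and 23.2% lower. The mean log2 signal of the 12 rose by 0.26, as did that of the 29 genes. Centring on the 12, which include Rack1, was thus bound to remove most of the rise.

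RpL27, a protein of the 60S subunit, was the abundant gene with the clearest rise. Its signals were 41789, 50439, 50654 and 45340 on eGFP replicates 1 to 4, and the lowest, median and highest on the Tip60 RNAi arrays were 55221, 65446 and 77558. Every Tip60 RNAi array lay above every mock array. The mean went from 47056 ± 4285 (SD, n = 4) to 64951 ± 8724 (SD, n = 6), or 0.46 on the log2 scale (SE 0.10, limma adjusted p = 0.00204). The change turned to −0.05 with arrays centred on their medians, and to −0.09 and −0.29 with the hybridization and poly-A spike-ins.

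RpL29, another protein of the 60S subunit, had signals of 40023, 48130, 51789 and 53630 on eGFP replicates 1 to 4. The lowest, median and highest on the Tip60 RNAi arrays were 52885, 68109 and 74152. The groups overlapped through replicate 2 of dsRNA 190-807, which lay below eGFP replicate 4. The log2 change was 0.45 (SE 0.10, limma adjusted p = 0.00304), and it turned to −0.06, −0.10 and −0.30 under the same 3 scalings. The calls of RpL27 and RpL29 held in all 10 fits that left out 1 array and after quantile and cyclic loess normalization. After quantile normalization the changes were 0.20 (adjusted p = 0.0241) for RpL27 and 0.18 (adjusted p = 0.0146) for RpL29.

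The other 5 called abundant genes all lost their call without eGFP replicate 1, and also without eGFP replicate 3. Without replicate 1 their log2 changes were lower, 0.27 for RpL17, 0.23 for RpS12, 0.18 for RpS26, 0.20 for RpS20 and 0.21 for RpL3. Without replicate 3 the changes were close to the reported ones or above, 0.35, 0.32, 0.32, 0.31 and 0.30 in that order, with adjusted p from 0.0599 to 0.0775. RpL17, which lines the exit of the peptide tunnel, changed by 0.36 (adjusted p = 0.0224) and kept its call in 8 of the 10 fits. RpS12, known in the fly for a part in cell competition between cells that differ in ribosomal protein genes, changed by 0.32 (adjusted p = 0.0284) and kept it in 7. RpS26, at the mRNA exit of the 40S subunit, changed by 0.30 (adjusted p = 0.0488) and kept it in 3. RpS20, named after its values were seen, changed by 0.30 (adjusted p = 0.0359) and kept it in 4. RpL3, near the catalytic center of the 60S subunit, changed by 0.28 (adjusted p = 0.0433) and kept it in 2.

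RpL3 had 3 probe sets, and all had positive changes. Its brightest had 47398 ± 4627 (SD, n = 4) and 57790 ± 7781 (SD, n = 6). A dimmer one gave 3005, 3332, 3103 and 3414 on the mock arrays and a lowest, median and highest of 3491, 4112 and 4608 on the Tip60 RNAi arrays. These groups did not overlap, and the log2 change was 0.34 (SE 0.08, adjusted p = 0.00416). The dimmest changed by 0.31 (SE 0.15, adjusted p = 0.117).

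RpL41, a very short basic protein of the 60S subunit, had the highest mean signal of the family. It gave 62602, 97632, 93383 and 103710 on eGFP replicates 1 to 4 and a lowest, median and highest of 86809, 105045 and 141356 on the Tip60 RNAi arrays. The groups overlapped, and the change was 0.27 (SE 0.15, adjusted p = 0.184). RpL39, a small protein of the peptide tunnel, changed by 0.32 (SE 0.13, adjusted p = 0.0691).

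The stalk proteins, which recruit elongation factors to the 60S subunit, had smaller values than most. RpLP1 had 84220 ± 15910 (SD, n = 4) and 97286 ± 16214 (SD, n = 6), a change of 0.21 (SE 0.14, adjusted p = 0.252). RpLP2 changed by 0.18 (SE 0.13, adjusted p = 0.311), and RpLP0, the base of the stalk, by 0.17 (SE 0.10, adjusted p = 0.210). The groups overlapped for all 3. RpS27A and RpL40, which are made as fusions with ubiquitin, changed by 0.25 (adjusted p = 0.121) and 0.17 (adjusted p = 0.210). RpLP0, RpS27A and RpL40 were named after their values were seen.

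The changes were similar over the chromosome arms. The abundant genes numbered 7, 7, 5, 7 and 3 on 2L, 2R, 3L, 3R and X, with median log2 changes of 0.25, 0.27, 0.23, 0.28 and 0.24. RpL15, whose gene is known to lie in heterochromatin of 3L and which was named after its values were seen, changed by 0.29 (SE 0.13, adjusted p = 0.0958). No difference between arms was tested.

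Each dsRNA gave a positive change for all 29 abundant genes, against the same 4 mock arrays. The median log2 change was 0.16 with dsRNA 1321-1618, 0.30 with 190-807 and 0.31 with 603-1116. With 1321-1618, 2 of the 38 genes were called higher (RpL27 and RpL29), beside 11.1% of all probe sets higher and 12.6% lower, and 0 were called lower. With 603-1116, 3 were called higher (RpL27, RpL29 and RpS5b), beside 13.5% higher and 13.7% lower. With 190-807, 0 were called by limma, beside 10.9% higher and 11.3% lower, and 6 were higher at an unadjusted p under 0.05. The F-test of limma for any difference among the dsRNAs called 0 of the 38 genes, with a lowest adjusted p of 0.763 and 0 genes at an unadjusted p under 0.05, beside 0.0355% of all probe sets.

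The duplicates and relatives ranged from below the filter to 25401, short of the abundant class. RpL34a, RpL24-like and RpL7-like had means of 25401, 14365 and 10391 on the mock arrays, and RpS19b had 642. RpS5b, RpS28a, RpL37-2, RpL22-like and RpS10a had means from 65.8 to 168. RpL10Aa and RpS28-like were below the filter and were not tested. Their constitutive partners RpS28b, RpL37-1 and RpL10Ab, measured here, had means of 74263, 49110 and 60061.

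RpS5b was the duplicate that passed the test. It encodes a form of a 40S head protein that is used in the female germline, while RpS5a serves other tissues. Its signals were 124, 233, 119.5 and 194 on eGFP replicates 1 to 4. On the Tip60 RNAi arrays they were 269 and 244 with dsRNA 1321-1618, 249 and 308 with 190-807, and 363 and 249 with 603-1116. All 6 Tip60 RNAi arrays lay above all 4 mock arrays.

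The mean of RpS5b rose from 168 ± 55.3 (SD, n = 4) to 280.5 ± 46.8 (SD, n = 6), a log2 change of 0.79 or 1.72-fold (SE 0.21, limma adjusted p = 0.00782). The change was 0.67, 0.78 and 0.90 with dsRNAs 1321-1618, 190-807 and 603-1116. It kept its call in all 10 fits that left out 1 array and after cyclic loess (0.54, adjusted p = 0.0406), and lost it after quantile normalization (0.46, adjusted p = 0.0738). It also lost it with arrays centred on their medians (0.28, adjusted p = 0.252) or on the 12 bright probe sets of other genes (0.53, adjusted p = 0.0610). With hybridization spike-ins the change was 0.24 (adjusted p = 0.463) and with poly-A spike-ins 0.035 (adjusted p = 0.915). The median signal of all fly probe sets, near the range of this dim gene, was higher on the Tip60 RNAi arrays as given above, and its part in this value was not tested.

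Germline markers were mostly too dim to set beside RpS5b. Of the 9 with a probe set, 4 were above the filter, with a median log2 change of 0.43; 0 of these rose (limma, 0 at an unadjusted p under 0.05) and 1 fell. The values were 0.71 for bam (adjusted p = 0.275), 0.46 for osk (adjusted p = 0.308) and 0.40 for bgcn (adjusted p = 0.457), and these 3 were chosen after their values were seen. The summed signal of the 9 was 1624 to 1836 on the mock arrays and 1361 to 1711 on the Tip60 RNAi arrays. Most of this sum came from zpg, a gap junction gene, which alone fell from 1476 ± 110 (SD, n = 4) to 1096 ± 63.7 (SD, n = 6). The defining germline marker vas had a mean of 36.1 on the mock arrays and was below the filter, which is set on mean log2 signal over all arrays. Whether the markers moved with RpS5b was not tested.

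**Figure D3:**
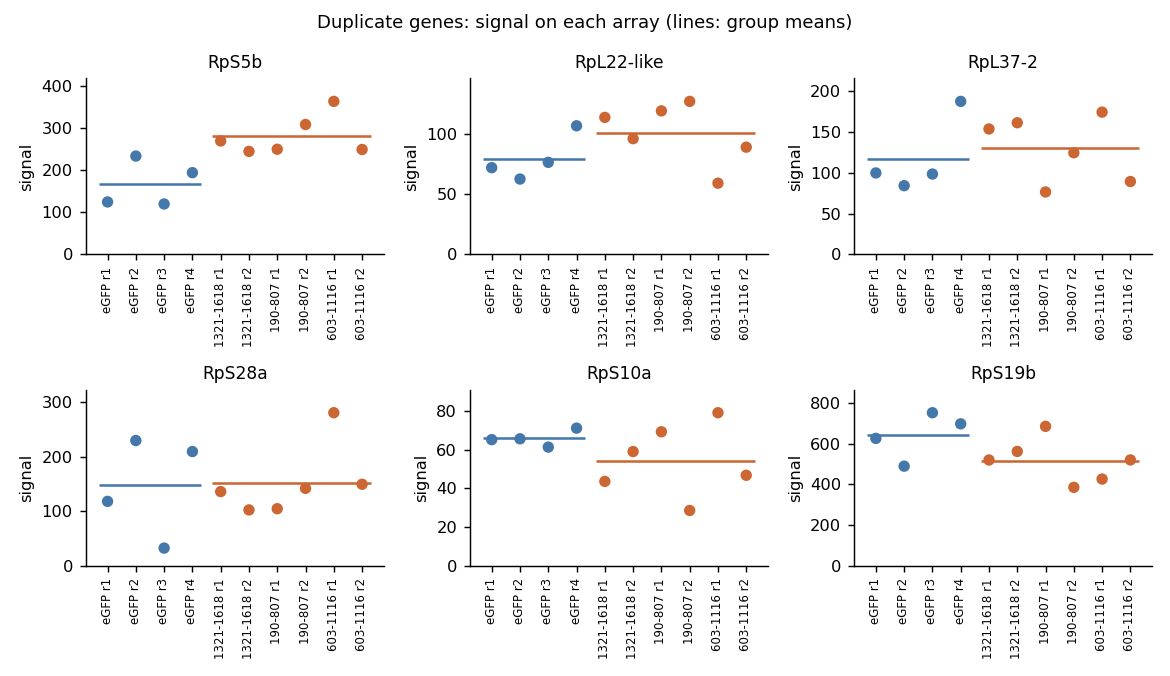
Each panel gives the signal of 1 duplicate gene on the vertical axis for the 10 arrays on the horizontal axis (blue for eGFP RNAi, orange for Tip60 RNAi, lines for group means). RpS5b runs from 119.5 to 233 after mock treatment and from 244 to 363 after Tip60 RNAi, while the groups overlap for RpL22-like, RpL37-2, RpS28a, RpS10a and RpS19b.

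RpS19b and RpS10a had the only negative values among the 38 genes. RpS19b, a germline copy of RpS19a, gave 626, 490, 753 and 698 on the mock arrays and a lowest, median and highest of 386, 520 and 686 on the Tip60 RNAi arrays. The groups overlapped, and the change was −0.32 (SE 0.15, adjusted p = 0.125). RpS19b was called lower with arrays centred on their medians (−0.82, adjusted p = 0.000182), with hybridization spike-ins (−0.87, adjusted p = 0.000613), with poly-A spike-ins (−1.07, adjusted p = 7.05e-08) and with arrays centred on the 12 bright probe sets of other genes (−0.57, adjusted p = 0.0147). Under these scalings, in this order, 48.5%, 41.9%, 60.1% and 23.2% of all probe sets were called lower. Leaving out eGFP replicate 2 (−0.44, adjusted p = 0.0448) or replicate 1 of dsRNA 190-807 (−0.41, adjusted p = 0.0376) also gave a call. In those fits 14.5% and 17.3% of all probe sets were called lower. RpS10a, a copy of RpS10b, gave 65.2, 65.6, 61.3 and 71.1 on the mock arrays and 28.5, 52.9 and 79.1 as lowest, median and highest on the Tip60 RNAi arrays, a change of −0.35 (SE 0.41, adjusted p = 0.552). RpS10a had no call under the other scalings, with −0.88 after quantile normalization, −0.85 after cyclic loess and with median centring, and −0.90 and −1.10 with hybridization and poly-A spike-ins.

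The other dim duplicates varied too much between arrays to show a change of moderate size. RpL22-like, which joins RpL22 in the male germline, had 79.8 ± 19.2 (SD, n = 4) and 101 ± 24.98 (SD, n = 6), a change of 0.33 (SE 0.31, adjusted p = 0.449). RpL37-2 had 118 ± 47.3 and 130.1 ± 40.2, a change of 0.15 (SE 0.31, adjusted p = 0.737). RpS28a had 147 ± 90.7 and 152 ± 65.7, a change of 0.30 (SE 0.45, adjusted p = 0.650). RpL10Aa ran from 3.69 to 76.3 after mock treatment and from 7.01 to 65.0 after Tip60 RNAi, and RpS28-like from 4.66 to 56.3 and from 4.81 to 16.8.

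For 2 pairs the change of the duplicate was set against that of its constitutive partner. RpS28a minus RpS28b was 0.06 (exact two-sided permutation p = 0.943, adjusted over the 2 pairs 0.943). RpL37-2 minus RpL37-1 was −0.05 (exact two-sided permutation p = 0.881, adjusted 0.943). Leaving out 1 array moved them from −0.58 to 0.34 and from −0.23 to 0.16. RpS28a was at 32.3 on eGFP replicate 3, and without that array its difference from RpS28b was −0.58.

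The brighter duplicates and relatives had small changes whose calls depended on scaling. RpL24-like and RpL7-like resemble the yeast proteins Rlp24 and Rlp7, which act in 60S assembly. RpL24-like had 14365 ± 779 (SD, n = 4) and 14557 ± 1232 (SD, n = 6), a change of 0.02 (SE 0.07, adjusted p = 0.887). RpL7-like had 10391 ± 681 and 10472 ± 742, a change of 0.01 (SE 0.07, adjusted p = 0.922). RpL34a, a copy of the 60S gene RpL34b, changed by 0.12 (SE 0.08, adjusted p = 0.238). With arrays centred on their medians RpL24-like, RpL7-like and RpL34a were called lower, at −0.49 (adjusted p = 0.00159), −0.49 (adjusted p = 0.00193) and −0.38 (adjusted p = 0.0104), beside 48.5% of all probe sets called lower. They were also called lower with hybridization and poly-A spike-ins, beside 41.9% and 60.1%.

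RpS30, a 40S protein made as a fusion with a ubiquitin-like protein, was the gene whose tested probe sets differed in sign. The bright one gave 43799, 61538, 62112 and 64733 on the mock arrays and a lowest, median and highest of 57255, 67954 and 85309 on the Tip60 RNAi arrays. Its change was 0.24 (SE 0.13, adjusted p = 0.154). The dim one gave 1233, 1133, 1178 and 1777 on the mock arrays and 669.9, 816 and 1486 as lowest, median and highest on the Tip60 RNAi arrays. Here 5 of the 6 Tip60 RNAi arrays lay below all mock arrays, and replicate 1 of dsRNA 190-807 did not. The change was −0.56 (SE 0.18, limma adjusted p = 0.0267), the only call for a fall among the 43 ribosomal protein probe sets tested.

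**Figure D4:**
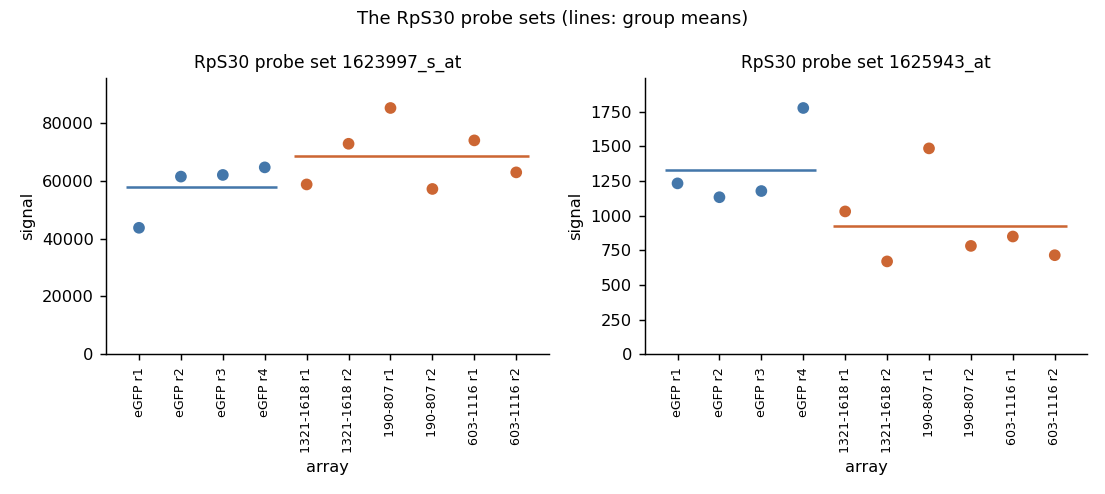
The panels give the signal of the bright (left) and the dim (right) RpS30 probe set on the vertical axis for the 10 arrays on the horizontal axis (blue for eGFP RNAi, orange for Tip60 RNAi, lines for group means). The mean goes from 58046 to 68562 for the bright and from 1330.4 to 922 for the dim probe set.

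RpS29 and RpS7 also had several probe sets. The 2 bright ones of RpS29, a small zinc-binding 40S protein, changed by 0.18 and 0.20, neither called, and the remaining one was below the filter. Those of RpS7, named after its values were seen, changed by 0.30 and 0.22, neither called.

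Counts for genes that build or use the ribosome follow, beside the 17.8% of all probe sets called higher and 16.7% called lower; no difference from the cytoplasmic genes was tested. Of 69 mitochondrial ribosomal protein genes tested, 44 fell and 0 rose (limma, 0 at an unadjusted p under 0.05), 63.8% lower, with a median log2 change of −0.30. They include mRpS14 at −0.77 and mRpS18A at −0.63. Of 25 ribosome assembly genes tested, 18 fell and 3 rose, 72% and 12%, with a median of −0.35. NHP2, a protein of the snoRNPs that modify rRNA, fell by 0.78 on the log2 scale, and Polr1A, the largest subunit of RNA polymerase I, by 0.58. Nop17l rose by 0.47 and pes by 0.60, although in the fly this symbol names a scavenger receptor and not an assembly factor.

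RpLP0-like, related to the yeast 60S assembly factor Mrt4, fell from 3338 ± 299 (SD, n = 4) to 2316 ± 169 (SD, n = 6), or −0.53 on the log2 scale (SE 0.07, adjusted p = 3.31e-05). It was 1 of 4 other ribosome parts tested, of which 0 rose. Of 26 translation factors tested, 5 rose and 5 fell, 19.2% each way and near the background, with a median of 0.04. The poly(A)-binding protein pAbp rose by 0.64, and eIF4E1, which binds the mRNA cap, fell by 0.31 on the log2 scale. Of 18 growth control genes tested, 6 rose, among them the insulin receptor InR at 0.52 and Trf2 at 0.41, and 2 fell, Max at −0.29 and M1BP at −0.28. Over the 10 hemocyte markers all rose, with a median of 0.65 and a summed signal of 141683 to 163859 on the mock and 223713 to 274587 on the Tip60 RNAi arrays; their part in the other results was not tested.

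**Figure D5:**
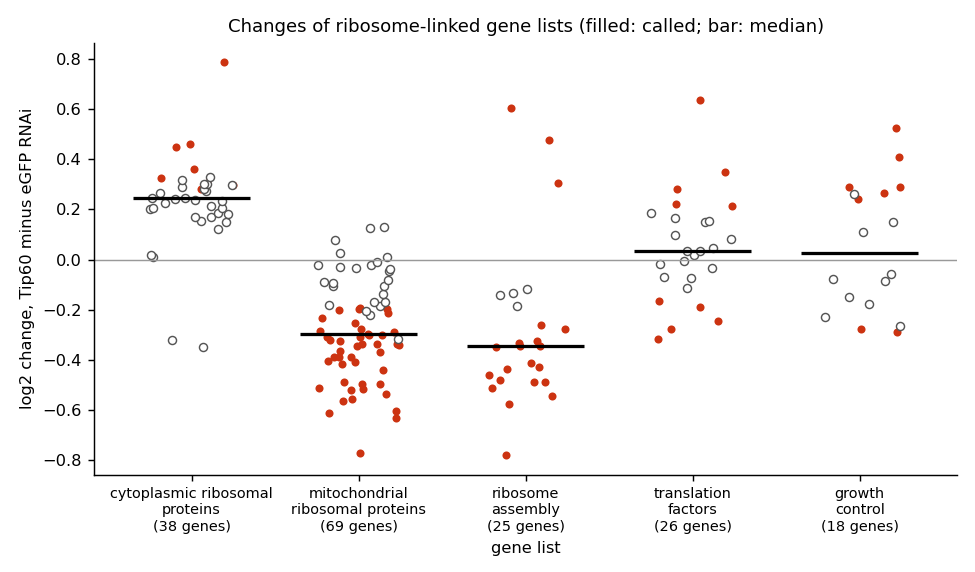
The vertical axis gives the log2 change of signal of each tested gene and the horizontal axis the gene list, with filled points for called genes and a bar at the median. The medians are 0.24 for cytoplasmic ribosomal proteins, −0.30 for mitochondrial ribosomal proteins, −0.35 for ribosome assembly, 0.04 for translation factors and 0.03 for growth control; all shift down with arrays centred on their medians, where the cytoplasmic median is −0.26.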

How the data were processed

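Expression was measured on 10 Affymetrix arrays, 1 per sample. The deposited values are signal intensity per probe set, made by the authors with GCOS 1.4, per the submitters' processing notes; for background correction and probe summary the method was not stated. Every array has the same 2% trimmed mean of deposited intensity, so changes are relative to it. Of 18769 fly probe sets, 13647 had 1 gene symbol in the platform annotation, 402 several and 4720 none, and 13544 were matched by identifier to a RefSeq table of Release 6 plus ISO1 MT, used for names, arms and gene order. A further 183 control probe sets were left out. No column of other samples was found (0).

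From these signals, log2 values of the 11261 probe sets above the 40th percentile of mean log2 signal (signal 34.5) were fitted with limma 3.58.1 in R 4.3.3 (eBayes with an intensity trend), 6 Tip60 arrays against 4 eGFP arrays, with Benjamini-Hochberg adjustment over all of them. A fit of 4 group means gave each dsRNA and the F-test. Pairs were tested by exact permutation over 210 splits. The fit was tested on simulated data. A gene entered by its brightest probe set. Replicate numbers follow deposition order. Alternatives covered scaling, the filter, a pseudocount, the variance model, array pairs, probe set choice, and arrays or dsRNAs left out.

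Members and lists were chosen with earlier results of these data known. Named were Tip60, genes of duplicate pairs, up to 6 called members with the largest rises and 6 with the largest falls, the 4 brightest, the 4 dimmest above the filter, those whose probe sets differed in call or sign, the 4 with the smallest F-test p, those with an outlying array, and up to 2 called genes per direction of each other list. Sequences were not used here.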

Additional observations from a re-analysis of the deposited data

Results flagged for a closer look

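In 8 of 76 group tests on the ribosomal protein genes (4 mock or 6 Tip60 RNAi arrays each), 1 array lay farther from the rest of its group than Dixon's 95% critical value allows. Chance gives about 1 in 20, and the tests are not independent, since abundant members move together between arrays. In 7 genes the array was eGFP replicate 1, with the lowest signal. There RpS18 was at 53826 (72896 to 74563 on the other mock arrays), and RpL10Ab at 44718 (63632 to 66072). RpS15 was at 42371 (59646 to 62675), and RpLP2 at 57904 (83466 to 88051). RpS30 was at 43799 (61538 to 64733), RpL3 at 40534 (48884 to 50561), and RpS29 at 43072 (65251 to 71066). The remaining case was RpL7-like, which was high on eGFP replicate 3 at 11407, against 9962 to 10132 on the other mock arrays.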

How the results depend on the processing

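The numbers 2 and 3 recur in the titles of mock and Tip60 RNAi arrays, without a stated meaning. With that number as a replicate block on the 7 arrays that carry it, a fit added after seeing the data, 1 ribosomal protein gene was called higher (RpL27), against 2 on the same 7 arrays without the block. Over all probe sets these fits called 2954 and 3033 in either direction. The difference between the numbers correlated at 0.029 over probe sets between mock and Tip60 RNAi, where number and dsRNA cannot be told apart. Against 8 genes called higher, beside 17.8% of all probe sets, the count was 2 after quantile normalization (13.5%) and 4 after cyclic loess (14%). It was 8 with arrays centred on the median of the brightest 25% of tested probe sets (18.8%). It was 0 with arrays centred on their medians (3.56%), with hybridization spike-ins (2.62%) and with poly-A spike-ins (2.02%). With the 12 bright probe sets of other genes (added after seeing the data) it was 0 (5.5%). It was 5 with no filter (10.2%), 3 with no intensity trend (16.6%) and 14 with array pairs averaged (16.1%). The count was 4 without probe sets ending in _s_at, from the same fit (17.8%). RpL17, RpL29, RpS12 and RpS26 had only such a probe set, so they left the set rather than losing a call. The count was 3 without dsRNA 603-1116 (13.6%). It was 3 without both outlying arrays (also added, 15.5%) and 3 to 11 with 1 array left out (14.8% to 18%). Against 0 called lower it was 1, 12, 21 and 31 after quantile, median, hybridization and poly-A scaling, beside 16.6%, 48.5%, 41.9% and 60.1% of all probe sets. It was 1 with the 12 bright probe sets of other genes (23.2%), 1 without _s_at probe sets and 0 to 1 with 1 array left out. The median change of 0.24 became −0.019, −0.26, −0.30, −0.51 and −0.012 under those 5 scalings and 0.11 to 0.30 with 1 array left out. The 3885 calls over all probe sets became 5861 with median centring, 6993 with poly-A spike-ins and 3267 to 3971 with 1 array left out.

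Signs of single genes turned mainly with scaling. After quantile normalization the log2 change was −0.019 for RpL10Ab, −0.16 for RpL22-like, −0.041 for RpL24-like, −0.012 for RpL3, −0.077 for RpL34a, −0.068 for RpL37-1, −0.28 for RpL37-2, −0.056 for RpL41, −0.060 for RpLP1, −0.071 for RpLP2, −0.038 for RpS15, −0.052 for RpS18, −0.082 for RpS28a, −0.017 for RpS28b, −0.067 for RpS29 and −0.0066 for RpS30, and the difference of RpS28a from RpS28b was −0.066. After cyclic loess the change was −0.11 for RpL22-like, −0.22 for RpL37-2 and −0.057 for RpS28a, and that difference was −0.15. With median centring, hybridization spike-ins and poly-A spike-ins, in this order, the change was −0.27, −0.31 and −0.52 for RpL10Ab, −0.15, −0.19 and −0.39 for RpL17, −0.18, −0.22 and −0.42 for RpL22-like, −0.49, −0.53 and −0.73 for RpL24-like, −0.046, −0.088 and −0.29 for RpL27, −0.058, −0.10 and −0.30 for RpL29, −0.22, −0.27 and −0.47 for RpL3 and −0.38, −0.43 and −0.63 for RpL34a. In the same order it was −0.30, −0.34 and −0.54 for RpL37-1, −0.35, −0.39 and −0.60 for RpL37-2, −0.19, −0.23 and −0.43 for RpL39, −0.23, −0.27 and −0.48 for RpL41, −0.49, −0.54 and −0.74 for RpL7-like, −0.29, −0.33 and −0.54 for RpLP1, −0.32, −0.36 and −0.57 for RpLP2 and −0.18, −0.22 and −0.43 for RpS12. In the same order it was −0.28, −0.32 and −0.52 for RpS15, −0.30, −0.34 and −0.55 for RpS18, −0.20, −0.24 and −0.45 for RpS26, −0.21, −0.25 and −0.45 for RpS28a, −0.27, −0.31 and −0.51 for RpS28b, −0.32, −0.37 and −0.57 for RpS29, −0.26, −0.30 and −0.51 for RpS30 and −0.21, −0.25 and −0.45 for RpS20. With arrays centred on the 12 bright probe sets of other genes it was −0.023 for RpL10Ab, −0.24 for RpL24-like, −0.13 for RpL34a, −0.050 for RpL37-1, −0.10 for RpL37-2, −0.25 for RpL7-like, −0.041 for RpLP1, −0.072 for RpLP2, −0.030 for RpS15, −0.052 for RpS18, −0.018 for RpS28b, −0.074 for RpS29 and −0.013 for RpS30. RpS30 was at −0.16 as the median of its probe sets and at −0.56 without _s_at probe sets. Without dsRNA 1321-1618 the change was −0.0098 for RpL24-like, −0.016 for RpL37-2 and −0.012 for RpL7-like. Without both outlying arrays it was −0.035 for RpL24-like, −0.033 for RpL7-like, −0.0064 for RpLP1, −0.029 for RpLP2 and −0.056 for RpS29. With 1 array left out, RpL24-like ran from −0.017 to 0.064, RpL7-like from −0.013 to 0.056 and RpS28a from −0.32 to 0.63. The RpS28 difference was −0.068 with a pseudocount of 32, −0.16 without dsRNA 603-1116 and −0.58 to 0.34 with 1 array left out. The RpL37 difference was 0.16 without dsRNA 190-807, 0.21 without both outlying arrays and −0.23 to 0.16 with 1 array left out. Where a count or sign changed with scaling, the cause was not tested.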

Other observations

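The Affymetrix controls for 18S rRNA, the RNA of the 40S subunit, varied widely between arrays. The control for its 3′ part had a signal of 32498, 39039, 8939 and 3169 on eGFP replicates 1 to 4, 11501 and 11347 with dsRNA 1321-1618, 1626 and 1567 with 190-807, and 3635 and 2069 with 603-1116. The mock arrays thus spanned most of the range, and the groups overlapped. The difference of mean log2 signal, Tip60 RNAi minus eGFP RNAi, was −1.90 for this control. It was −2.01 for the control of the 5′ part and −2.08 for that of the middle part, and these differences were not tested.

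On chromosome arm 3R, RpS5b lies between VhaPPA1-2 and VhaPPA1-1, 2 proton pump subunit genes. VhaPPA1-1 fell from 18331 to 13821 (log2 change −0.41), and VhaPPA1-2 was not tested. RpL10Aa, the other dim duplicate of this stretch, lies 4 protein-coding genes from RpS5b and was not tested either.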
